A study of Mus musculus with 6 samples.

Results

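The genes described here are the ligands and receptors of the tumour necrosis factor (TNF) superfamily, measured in 3 populations of mouse cells grown from bone marrow. Members were taken by symbol: those beginning with Tnfsf or Tnfrsf, together with Lta, Ltb, Ltbr, Cd40, Cd27, Cd70, Fas, Fasl, Ngfr and Edar, with Tnf itself left out. The rule gave 39 genes of the 19938 measured by probe sets annotated to a single gene, 13 of them ligands and 26 receptors, and each had 1 such probe set. A probe set shared by Tnfsf12, Tnfsf13 and their read-through gene was not used, since it names several genes. Marrow came from C57BL/6J mice labelled male, 6 to 10 weeks old, and was cultured for 7 days. GM-BMDC, the dendritic cells, and GM-BMM, the macrophages, were grown with GM-CSF at 25 ng/ml and sorted from such cultures by their surface proteins, GM-BMDC as MHCIIhighF4/80low cells and GM-BMM as MHCIIlowF4/80high cells. M-BMM, also macrophages, were grown with 20% L cell conditioned medium as the source of M-CSF and sorted for CD11b together with the macrophage antigen encoded by Adgre1. Each population has 2 arrays, called biological replicates in the labels, but no label ties them to separate animals or cultures, and p-values here reflect the spread of arrays alone.

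TNF superfamily ligands are mostly membrane proteins that assemble as trimers, and their receptors carry cysteine-rich repeats outside the cell. Receptors of one kind recruit TRAF adaptors and switch on NF-κB, while those with a death domain can also start apoptosis or necroptosis. On dendritic cells the family is best known for costimulation of lymphocytes, CD40 receiving the signal of helper T cells and OX40 ligand and its relatives sending signals back, and in macrophages for responses to TNF and for the formation of osteoclasts through RANK.

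Values are log2 signals from the RMA method, and because the table marks no background, values below the 25th percentile over all probe sets and arrays, 5.04, are called low. The arrays went partly against the label male. Xist, a noncoding RNA made from the inactive X of females, measured 11.66 and 10.68 in GM-BMDC, 11.58 and 4.93 in GM-BMM, and 4.53 and 4.80 in M-BMM. The mean of 3 Y-linked genes was 4.27 and 8.02 in GM-BMDC, 3.97 and 8.47 in GM-BMM, and 8.76 and 8.64 in M-BMM. Counts are therefore also given with the Y-linked mean as a covariate, and some differences without both GM-CSF arrays numbered 1, which were low in Y-linked RNA. Neither setting takes out the mismatch, since GM-BMDC replicate 2 was high in both Xist and Y-linked RNA. Xist itself passed between GM-BMDC and M-BMM (log2 difference 6.5 ± 1.76 SE, limma adjusted p = 0.0445). In that comparison, population and Xist RNA cannot be told apart. Marker genes were set beside the cell labels, a check that was partly fixed by the sorting. The mean of 9 dendritic cell genes was 10.54 and 10.35 in GM-BMDC, 7.82 and 7.93 in GM-BMM, and 5.93 and 6.06 in M-BMM. The mean of 10 macrophage genes was 10.01 and 10.85 in GM-BMDC, 11.24 and 11.62 in GM-BMM, and 11.71 and 11.70 in M-BMM. GM-BMDC replicate 2 thus stood nearer to the macrophages than replicate 1 by this mean. The dendritic cell list holds H2-Ab1, Cd74 and Ciita, of the MHC class II pathway, and the macrophage list holds Adgre1. Cells were sorted by MHC class II, the antigen encoded by Adgre1, or both, so these genes do not test the labels independently. Outside the stated gates, Flt3, Zbtb46, Ccr7, Irf4 and Dpp4 passed as higher in GM-BMDC than in each macrophage population. Cd68, Fcgr1 and Maf passed as lower. Of the 10 macrophage genes, C1qa (9.56 against 9.34) and C1qb (12.20 against 11.88) had higher means in GM-BMDC than in GM-BMM, and the others had lower means. H2-Ab1, an MHC class II gene, was at 10.08 and 11.27 in the GM-BMM arrays, and Adgre1, whose product marks macrophages, at 9.39 and 10.91 in the GM-BMDC arrays. In bulk RNA, fewer cells of a type and less RNA per cell cannot be told apart.

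Upstream DNA of 4 members is shown because these members differed between populations and held a match to a motif of NF-κB or of the interferon response, pathways that act on and through the family. The sequences are the 250 bases before a transcription start site in RefSeq on GRCm38.p6, read 5′ to 3′ on the gene's strand, with the match in capitals.
Tnfrsf9: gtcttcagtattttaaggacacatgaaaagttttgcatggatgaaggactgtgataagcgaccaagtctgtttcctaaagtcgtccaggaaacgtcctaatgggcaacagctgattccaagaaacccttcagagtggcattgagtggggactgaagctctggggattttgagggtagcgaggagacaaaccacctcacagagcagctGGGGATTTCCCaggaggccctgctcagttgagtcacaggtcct
Ltb: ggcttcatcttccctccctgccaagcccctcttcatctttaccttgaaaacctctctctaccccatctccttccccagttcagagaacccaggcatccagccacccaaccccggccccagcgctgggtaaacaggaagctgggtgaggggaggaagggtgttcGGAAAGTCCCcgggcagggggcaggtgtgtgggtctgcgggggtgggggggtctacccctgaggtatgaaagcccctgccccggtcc
Tnfrsf14: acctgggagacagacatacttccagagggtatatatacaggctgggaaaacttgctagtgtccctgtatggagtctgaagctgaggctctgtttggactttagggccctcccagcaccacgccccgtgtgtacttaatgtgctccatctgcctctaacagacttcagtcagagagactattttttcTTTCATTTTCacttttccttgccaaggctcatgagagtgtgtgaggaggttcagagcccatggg
Tnfrsf1b: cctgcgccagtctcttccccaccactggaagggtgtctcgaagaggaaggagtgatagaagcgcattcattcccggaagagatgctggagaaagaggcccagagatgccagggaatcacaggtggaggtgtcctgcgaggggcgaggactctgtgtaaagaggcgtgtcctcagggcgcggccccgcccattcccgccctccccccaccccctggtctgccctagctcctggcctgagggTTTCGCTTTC
The Tnfrsf9 window lies at chr4:150927749-150927998 on the plus strand and holds 2 overlapping matches to the NF-κB consensus from position -43 to -33, counted from the start site. RefSeq lists a second Tnfrsf9 start site, whose window held no match to this consensus. The Ltb window, chr17:35194257-35194506 on the plus strand, holds an NF-κB match from -87 to -78. The windows of Tnfrsf14 (chr4:154928078-154928327, minus strand) and Tnfrsf1b (chr4:145246871-145247120, minus strand) hold a match to the core of interferon response elements (GAAA, any 2 bases, then GAAA, here on the opposite strand as TTTC repeated), from -64 to -55 and from -10 to -1. Both strands were searched for these motifs and for GAGGAAGT, the site of the myeloid factor PU.1, in the same stretch of 32851 windows, of which 3.9%, 2.98% and 2.44% held the motifs of NF-κB, the interferon response and PU.1. The 31 members with a window had 35 windows. Of these windows, 3 held the NF-κB consensus (Ltb, Tnfrsf8 and Tnfrsf9) and 4 the interferon response motif (Tnfrsf14, Tnfrsf17, Tnfrsf1b and Tnfsf13b). GAGGAAGT was held by 1 (Tnfsf18). No window was at hand for Cd40, Cd70, Tnfsf4, Tnfsf9, Tnfrsf10b, Tnfrsf11b, Tnfrsf22 and Tnfrsf26. A match describes the letters only.

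Across the family, 21 of the 39 members passed the test in at least 1 comparison, 13 receptors and 8 ligands. The share of all genes that passed in at least 1 comparison is not given here, so this count has no background. Shares of all genes stand below for each comparison. The 7 members higher in GM-BMDC than in GM-BMM were Cd40, Tnfrsf4, Tnfrsf18, Tnfrsf13c, Tnfsf4, Tnfsf8 and Tnfsf15, and the 5 lower were Tnfrsf14, Tnfrsf1b, Tnfrsf21, Tnfrsf23 and Tnfrsf26. Each comparison was tested with limma over all genes and all 6 arrays, with a Benjamini-Hochberg adjusted p under 0.05 as the threshold. In GM-BMDC against GM-BMM these 12 were 30.8% of the members, where 10.4% of all genes passed, 4.69% as higher and 5.74% as lower. In GM-BMM against M-BMM, 2 were higher and 2 lower, 10.3% of the members against 6.19% of all genes (3.62% higher, 2.57% lower). Between GM-BMDC and M-BMM, 11 members were higher in GM-BMDC and 5 lower, 41.0% of the members against 16.7% of all genes (7.76% higher, 8.9% lower). Past the threshold and at least 2-fold apart were 11, 2 and 9 members, and 4.69%, 3.02% and 6.95% of all genes, in the 3 comparisons in this order. The comparisons share arrays, so their counts are not independent of each other. The median of the absolute log2 difference over the members was 0.47, 0.47 and 0.52 in the same order, and over all genes it was 0.15, 0.14 and 0.17. The signed medians of the members were 0.06, 0.05 and 0.10.

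These counts moved when single arrays were left out, which leaves 1 array in that population. For GM-BMDC against GM-BMM, leaving out either M-BMM array gives the same fit as these populations alone. It changes the SE, here and below, and not the difference. In GM-BMDC against GM-BMM, 6 members passed without GM-BMDC replicate 1. Of all genes, too, fewer passed without either M-BMM array in each comparison. In GM-BMM against M-BMM, more members passed without GM-BMM replicate 2 and fewer without either M-BMM array. Between GM-BMDC and M-BMM, 10 passed without GM-BMDC replicate 1, 5 without M-BMM replicate 1 and 6 without M-BMM replicate 2. Without both GM-CSF arrays numbered 1 members past the threshold numbered 14, 13 and 15 in the same order (9.67%, 7.89% and 15.6% of all genes), and 10, 4 and 14 of these were members that also passed with all arrays. The Y-linked covariate gave 15, 5 and 10 (11.2%, 4.51% and 10.6% of all genes), of which 12, 3 and 10 were shared. Without limma's moderation of the variances 0 members passed in any of the 3 comparisons, with 11, 5 and 14 at an unadjusted p under 0.05.

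**Figure D1:**
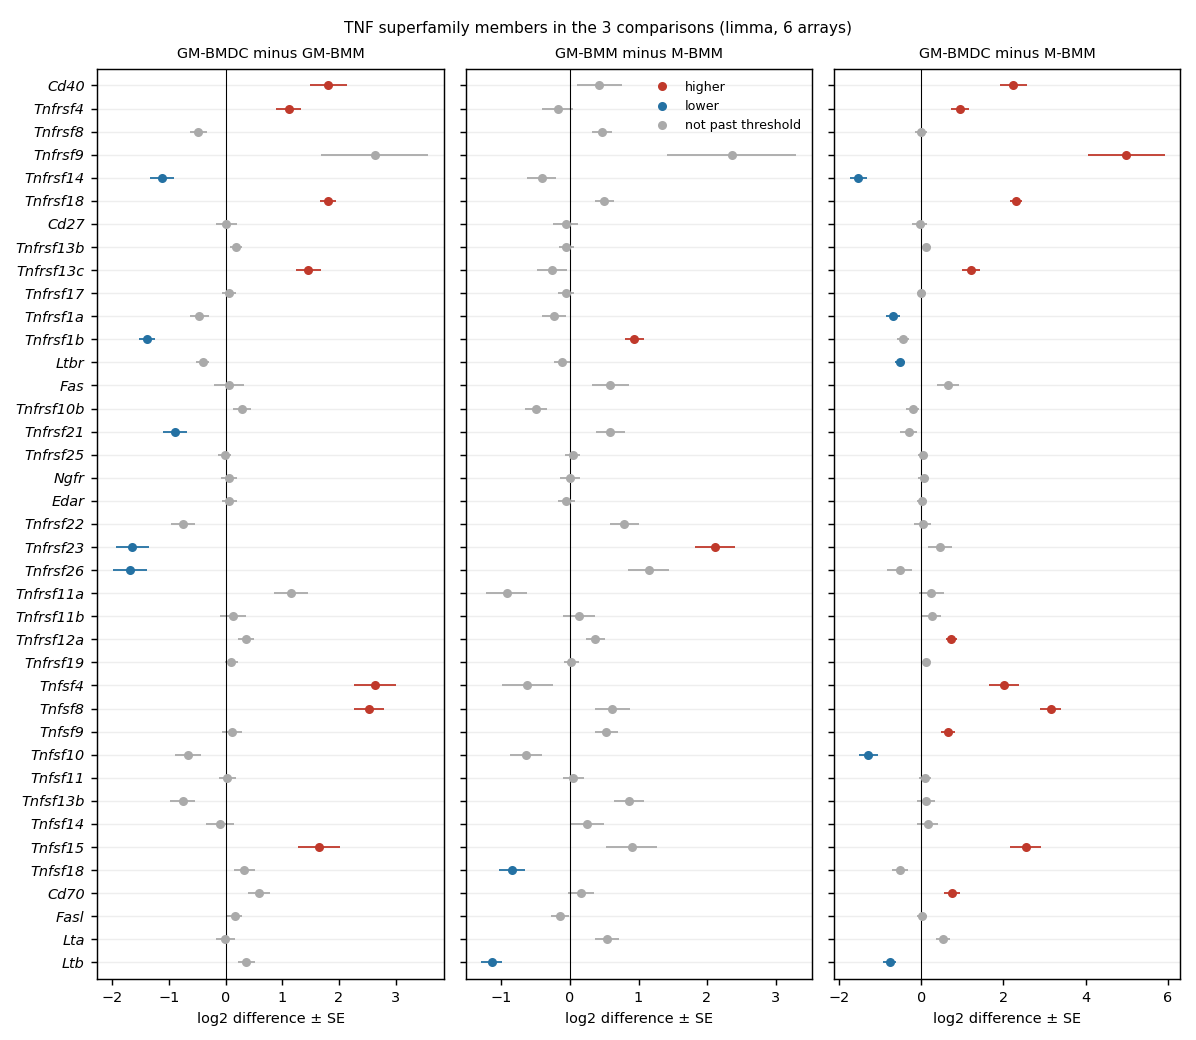
Log2 difference (x axis, ± SE from limma) of the 39 members (rows, receptors above ligands) in the 3 comparisons (panels), with members higher in red, lower in blue and those that did not pass in grey. The widest bars are those of Tnfrsf9, and GM-BMM against M-BMM has the fewest coloured points, 4 in all.

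Among the costimulatory receptors, Cd40, Tnfrsf4 and Tnfrsf18 were higher and Tnfrsf14 lower in GM-BMDC than in either macrophage population. Of 7 such genes, 3 were higher in GM-BMDC than in GM-BMM and 1 was lower. Against M-BMM, 4 were higher and 1 lower in GM-BMDC, while 0 of the 7 passed by limma between GM-BMM and M-BMM, where 3 had an unadjusted p under 0.05. Cd40, whose product receives the CD40 ligand of helper T cells, measured 9.94 and 9.08 in GM-BMDC, 7.29 and 8.10 in GM-BMM, and 7.36 and 7.19 in M-BMM. Both GM-BMDC arrays lay above every macrophage array, by 3.51-fold on average over GM-BMM (log2 difference 1.81 ± 0.33 SE, limma adjusted p = 0.0137) and 4.72-fold over M-BMM (2.24 ± 0.33, limma adjusted p = 0.00359, n = 2 arrays in each group here and below). Tnfrsf18 encodes GITR, a receptor known from regulatory T cells, and measured 7.76 and 7.75 in GM-BMDC, 6.12 and 5.79 in GM-BMM, and 5.42 and 5.49 in M-BMM. It had the most closely matched GM-BMDC arrays of the costimulatory genes that passed and was higher by 3.48-fold than in GM-BMM (1.80 ± 0.14, limma adjusted p = 0.000419) and by 4.92-fold than in M-BMM (2.30 ± 0.14, limma adjusted p = 8.48e-05). Its neighbour on the chromosome Tnfrsf4, which encodes OX40, measured 7.91 and 7.19 in GM-BMDC, 6.47 and 6.41 in GM-BMM, and 6.53 and 6.70 in M-BMM. The groups did not overlap, and the rise in GM-BMDC was 2.16-fold over GM-BMM (1.11 ± 0.22, limma adjusted p = 0.0195) and 1.91-fold over M-BMM (0.93 ± 0.22, limma adjusted p = 0.0263).

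Tnfrsf14 went the other way. It encodes HVEM, the receptor of LIGHT that also binds inhibitory partners on lymphocytes, and measured 8.55 and 9.0 in GM-BMDC, 9.64 and 10.16 in GM-BMM, and 10.24 and 10.38 in M-BMM. GM-BMDC lay below both macrophage populations, 2.18-fold below GM-BMM (-1.13 ± 0.21, limma adjusted p = 0.0157) and 2.91-fold below M-BMM (-1.54 ± 0.21, limma adjusted p = 0.00266). Tnfrsf8, which encodes CD30, measured between 6.02 and 6.75 over the 6 arrays and passed in no comparison, and Cd27, the receptor of CD70, lay between 4.92 and 5.31. The Cd40 call against GM-BMM ended without GM-BMDC replicate 1 (1.39, limma adjusted p = 0.062) and when all probe sets were tested (adjusted p = 0.0594), and its difference was 0.98 without both GM-CSF arrays numbered 1. Against GM-BMM, Tnfrsf4 did not pass without GM-BMM replicate 1 (1.14, adjusted p = 0.0568), GM-BMM replicate 2 (1.08, 0.0796) or either M-BMM array (1.11, 0.0595), nor Tnfrsf14 without GM-BMDC replicate 1 (-0.90, 0.0847), GM-BMM replicate 2 (-0.87, 0.0606) or either M-BMM array (-1.13, 0.0517). Against M-BMM, Tnfrsf4 did not pass without GM-BMDC replicate 1 (0.57, limma adjusted p = 0.0579), M-BMM replicate 1 (0.85, 0.179) or M-BMM replicate 2 (1.02, 0.109), or with the Y-linked covariate (0.71, 0.0978).

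Tnfrsf9, which encodes 4-1BB, was split within GM-BMM. It measured 12.13 and 11.20 in GM-BMDC, 10.75 and 7.31 in GM-BMM, and 6.70 and 6.65 in M-BMM. GM-BMM replicate 1 lay near GM-BMDC and replicate 2 near M-BMM, a gap of -3.44 between replicate 2 and replicate 1 that ranked 8 among the absolute replicate differences of all 19938 genes in GM-BMM. GM-BMDC stood 31.8-fold above M-BMM (4.99 ± 0.94, limma adjusted p = 0.0107). The fit pools the spread of all populations, so this SE also holds the GM-BMM split (SD 2.43, against 0.66 in GM-BMDC and 0.03 in M-BMM). The call stayed when GM-BMDC and M-BMM were fitted alone. Xist was split over the same arrays. It was high in both GM-BMDC arrays (11.66 and 10.68) and GM-BMM replicate 1 (11.58). It was low in GM-BMM replicate 2 (4.93) and both M-BMM arrays (4.53 and 4.80). For Tnfrsf9, the difference between GM-BMDC and M-BMM and the difference in Xist RNA therefore cannot be told apart. Neither comparison with GM-BMM passed, with a log2 difference of 2.63 ± 0.94 in GM-BMDC against GM-BMM (limma adjusted p = 0.14) and 2.36 ± 0.94 for GM-BMM over M-BMM (limma adjusted p = 0.224). Leaving out GM-BMM replicate 1 gave 4.35 (limma adjusted p = 0.000781) and 0.64 (0.468) for these comparisons, and leaving out GM-BMM replicate 2 gave 0.91 (0.205) and 4.08 (0.00099). Against M-BMM the call of GM-BMDC ended without GM-BMDC replicate 1 (4.52, limma adjusted p = 0.0681), M-BMM replicate 1 (5.01, 0.0946) or M-BMM replicate 2 (4.97, 0.087), and with a trended and robust variance (0.0854), and it was 3.57 with the Y-linked covariate.

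**Figure D2:**
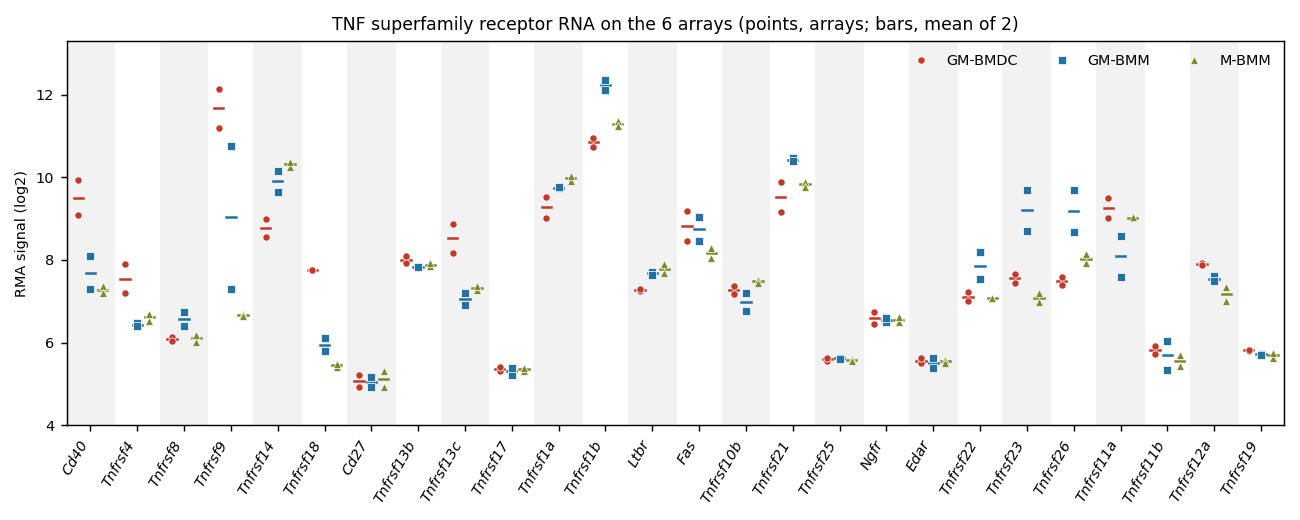
RMA signal (y axis, log2) of the 26 receptor genes (x axis) on each array, with red circles for GM-BMDC, blue squares for GM-BMM, green triangles for M-BMM and a bar at the mean of 2 arrays. The 2 GM-BMM squares of Tnfrsf9 lie at 10.75 and 7.31, and those of Tnfrsf23 and Tnfrsf26 lie above the arrays of GM-BMDC and M-BMM.

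Among the receptors of the B cell survival factors BAFF and APRIL, Tnfrsf13c was higher in GM-BMDC than in either macrophage population. It encodes the BAFF receptor, best known on B lymphocytes, and measured 8.87 and 8.18 in GM-BMDC, 6.92 and 7.20 in GM-BMM, and 7.27 and 7.37 in M-BMM. The groups did not overlap, and the fold was 2.75 over GM-BMM (1.46 ± 0.22, limma adjusted p = 0.00702) and 2.29 over M-BMM (1.20 ± 0.22, limma adjusted p = 0.0101). Of 7 measured B cell genes, Cd79a and Ms4a1 were higher in GM-BMDC than in either macrophage population. Cd79a, part of the B cell receptor, measured 7.15 and 6.23 in GM-BMDC, 3.99 and 4.49 in GM-BMM, and 4.73 and 4.49 in M-BMM, and Ms4a1, which encodes CD20, measured 6.87 and 6.14 in GM-BMDC, 4.91 and 4.66 in GM-BMM, and 4.98 and 5.34 in M-BMM. Against GM-BMM these 2 were the only ones of the 7 to pass. Against M-BMM 3 passed, with Cd79b lower by a log2 difference of -2.28 in GM-BMDC. Without passing, Cd22 differed by -0.62 from GM-BMM and -0.68 from M-BMM, and Pax5 by 0.63 and 0.58. The summed linear signal of the 7 ranged from 607 to 1030 in GM-BMDC, from 613 to 727 in GM-BMM and from 1590 to 1660 in M-BMM. Most of the M-BMM sum came from 1 gene, Cd79b, at 10.16 and 10.21 there, with Cd22 next at 7.85 and 7.89. None of the 7 was low on all arrays, and their part in the Tnfrsf13c result was not tested. Tnfrsf13b (TACI, 7.83 to 8.09) and Tnfrsf17 (BCMA, 5.21 to 5.41) had narrow ranges over the 6 arrays and passed in no comparison. Against M-BMM the Tnfrsf13c call ended without M-BMM replicate 1 (1.15, limma adjusted p = 0.097) or M-BMM replicate 2 (1.25, 0.0718), and that of Ms4a1 without M-BMM replicate 1 (1.16, 0.0991).

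The receptors of TNF and lymphotoxin were lower in GM-BMDC where they passed. Tnfrsf1b, the second TNF receptor, which signals through TRAF adaptors, measured 10.74 and 10.94 in GM-BMDC, 12.11 and 12.35 in GM-BMM, and 11.35 and 11.23 in M-BMM. GM-BMM held the highest values, GM-BMDC lying 2.62-fold below them (-1.39 ± 0.14, limma adjusted p = 0.00107) and GM-BMM 1.92-fold above M-BMM (0.94 ± 0.14, limma adjusted p = 0.00768). GM-BMDC against M-BMM differed by -0.45 ± 0.14 (limma adjusted p = 0.0648). Tnfrsf1a, the death domain receptor of TNF, measured 9.01 and 9.53 in GM-BMDC, 9.73 and 9.76 in GM-BMM, and 9.91 and 10.03 in M-BMM. It was 1.62-fold lower in GM-BMDC than in M-BMM (-0.70 ± 0.17, limma adjusted p = 0.032). Ltbr, the receptor of membrane lymphotoxin, measured 7.24 and 7.29 in GM-BMDC, 7.72 and 7.64 in GM-BMM, and 7.68 and 7.90 in M-BMM, and was 1.44-fold lower in GM-BMDC than in M-BMM (-0.53 ± 0.12, limma adjusted p = 0.0241). Neither passed in the other comparisons. The Tnfrsf1b call in GM-BMM against M-BMM ended without M-BMM replicate 1 (1.00, limma adjusted p = 0.0681) or M-BMM replicate 2 (0.88, 0.0985), and the 2 calls against M-BMM ended without GM-BMDC replicate 1 (-0.44 for Tnfrsf1a, 0.11, and -0.50 for Ltbr, 0.104), without M-BMM replicate 1 (-0.76, 0.135, and -0.63, 0.0597) or replicate 2 (-0.64, 0.176, and -0.42, 0.148), and that of Ltbr without GM-BMDC replicate 2 (-0.55, 0.0633). Both also ended without both GM-CSF arrays numbered 1 (0.0848 for Tnfrsf1a and 0.0702 for Ltbr) and with the Y-linked covariate (0.128 and 0.0754).

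Of the 6 other death domain receptors, 1 passed in 1 comparison. Tnfrsf21, which encodes death receptor 6, measured 9.17 and 9.88 in GM-BMDC, 10.46 and 10.39 in GM-BMM, and 9.89 and 9.77 in M-BMM, and was 1.87-fold lower in GM-BMDC than in GM-BMM (-0.90 ± 0.21, limma adjusted p = 0.0389). Both GM-BMDC arrays were below the GM-BMM arrays, and the higher of them lay between the M-BMM arrays. This call ended without GM-BMDC replicate 1 (-0.55, limma adjusted p = 0.0859), GM-BMM replicate 1 (-0.87, 0.123), GM-BMM replicate 2 (-0.94, 0.112) or either M-BMM array (0.0965), and without both GM-CSF arrays numbered 1 (-0.51, 0.111). Fas, the receptor of Fas ligand, measured 9.18 and 8.46 in GM-BMDC, 9.05 and 8.46 in GM-BMM, and 8.29 and 8.04 in M-BMM, and did not pass (0.65 ± 0.27 in GM-BMDC against M-BMM, limma adjusted p = 0.167). In both GM-CSF populations replicate 1 was the higher array, and without GM-BMDC replicate 2 Fas passed in that comparison (1.01, limma adjusted p = 0.0472). Tnfrsf10b, the TRAIL receptor of mice, lay between 6.77 and 7.52 and passed in no comparison. Ngfr, the neurotrophin receptor (6.45 to 6.75), Tnfrsf25, which encodes DR3 (5.55 to 5.64), and Edar, the ectodysplasin receptor of developing skin (5.38 to 5.62), spanned narrow ranges over the 6 arrays and differed by at most 0.06 in any comparison.

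Tnfrsf22, Tnfrsf23 and Tnfrsf26 are neighbours on chromosome 7 without another protein-coding gene between them, and Tnfrsf22 and Tnfrsf23 encode decoy receptors of TRAIL in mice. Tnfrsf23 measured 7.44 and 7.67 in GM-BMDC, 9.70 and 8.71 in GM-BMM, and 7.19 and 6.99 in M-BMM. Both GM-BMM arrays lay above all others, and Tnfrsf23 was 3.14-fold lower in GM-BMDC than in GM-BMM (-1.65 ± 0.29, limma adjusted p = 0.0127) and 4.33-fold higher in GM-BMM than in M-BMM (2.11 ± 0.29, limma adjusted p = 0.00646). Tnfrsf26 measured 7.40 and 7.60 in GM-BMDC, 9.70 and 8.67 in GM-BMM, and 8.14 and 7.93 in M-BMM, and was 3.22-fold lower in GM-BMDC than in GM-BMM (-1.69 ± 0.30, limma adjusted p = 0.0129). Its difference between GM-BMM and M-BMM was 1.15 ± 0.30 (limma adjusted p = 0.0728). Tnfrsf22 measured 7.00 and 7.23 in GM-BMDC, 8.19 and 7.54 in GM-BMM, and 7.07 and 7.08 in M-BMM, with log2 differences of -0.76 ± 0.21 and 0.79 ± 0.21 in the comparisons with GM-BMM (limma adjusted p = 0.0629 and 0.0756). In each of the 3 genes GM-BMM replicate 1 was the higher GM-BMM array, by 1.00 in Tnfrsf23, 1.03 in Tnfrsf26 and 0.65 in Tnfrsf22. Whether a probe set of this cluster also detects RNA of its neighbours was not tested. Without GM-BMDC replicate 1 the calls of Tnfrsf23 (-1.53, limma adjusted p = 0.0776) and Tnfrsf26 (-1.58, 0.0771) against GM-BMM ended, and their differences were -1.03 and -1.07 when both GM-CSF arrays numbered 1 were left out. Without GM-BMM replicate 2 both Tnfrsf22 comparisons passed (-1.08 and 1.12), as did Tnfrsf26 in GM-BMM against M-BMM (1.67), whereas that of Tnfrsf23 ended without M-BMM replicate 1 (2.21, 0.0717) or M-BMM replicate 2 (2.02, 0.0928).

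The last receptors act in bone and tissue repair. Tnfrsf11a, which encodes RANK, the receptor that drives osteoclast formation, measured 9.50 and 9.02 in GM-BMDC, 7.60 and 8.59 in GM-BMM, and 9.01 and 9.03 in M-BMM. GM-BMM held the lowest values, though its log2 differences did not pass, at 1.16 ± 0.30 in GM-BMDC against GM-BMM (limma adjusted p = 0.0549) and -0.92 ± 0.30 between GM-BMM and M-BMM (limma adjusted p = 0.146). Without GM-BMM replicate 2 both passed (1.66, limma adjusted p = 0.00621, and -1.41, 0.0114), and without both GM-CSF arrays numbered 1 the first was 0.43 (0.169). Tnfrsf12a, which encodes Fn14, the receptor of TWEAK, measured 7.92 and 7.88 in GM-BMDC, 7.61 and 7.48 in GM-BMM, and 7.00 and 7.35 in M-BMM. It was 1.66-fold higher in GM-BMDC than in M-BMM (0.73 ± 0.14, limma adjusted p = 0.0129), a call that ended without GM-BMDC replicate 1 (0.71, 0.065), without M-BMM replicate 1 (0.55, 0.0939) or with the Y-linked covariate (0.67, 0.0592). Tnfrsf11b, the soluble decoy of RANK ligand called osteoprotegerin (5.35 to 6.04), and Tnfrsf19, also called TROY (5.64 to 5.83), passed in no comparison.

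Of the 13 ligands, 3 passed in GM-BMDC against GM-BMM, all higher, and 2 in GM-BMM against M-BMM, both lower, and in GM-BMDC 5 were higher and 2 lower than in M-BMM. Tnfsf8 encodes CD30 ligand and measured 8.10 and 8.71 in GM-BMDC, 6.10 and 5.65 in GM-BMM, and 5.01 and 5.52 in M-BMM. Both GM-BMDC arrays were far above the others, 5.77-fold over GM-BMM (2.53 ± 0.26, limma adjusted p = 0.00134) and 8.86-fold over M-BMM (3.15 ± 0.26, limma adjusted p = 0.000326), where 1 array was low. Tnfsf15, its chromosome neighbour, encodes TL1A, a costimulator of T cells, and measured 10.02 and 9.05 in GM-BMDC, 7.41 and 8.36 in GM-BMM, and 7.10 and 6.88 in M-BMM. The fold was 3.13 over GM-BMM (1.65 ± 0.37, limma adjusted p = 0.0328) and 5.84 over M-BMM (2.54 ± 0.37, limma adjusted p = 0.00367). Tnfsf4, OX40 ligand, measured 8.24 and 7.07 in GM-BMDC, 5.30 and 4.75 in GM-BMM, and 5.85 and 5.43 in M-BMM. GM-BMDC exceeded GM-BMM 6.21-fold (2.63 ± 0.37, limma adjusted p = 0.00505), a fold against a low mean of 5.02, and M-BMM 4.05-fold (2.02 ± 0.37, limma adjusted p = 0.00986). The GM-BMDC arrays of Tnfsf4 differed by 1.17, the largest replicate difference of a member in GM-BMDC, so that its difference from GM-BMM was 2.05 without GM-BMDC replicate 1 and 3.22 without replicate 2, and that from M-BMM 1.43 and 2.61.

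Those calls were not equally firm. Tnfsf15 against GM-BMM did not pass without GM-BMDC replicate 1 (1.16, limma adjusted p = 0.148), GM-BMM replicate 1 (1.18, 0.11) or either M-BMM array (0.0886), with a trended and robust variance (0.0786), or without both GM-CSF arrays numbered 1 (0.69, 0.0524). Tnfsf4 against M-BMM did not pass without M-BMM replicate 1 (2.23, limma adjusted p = 0.0604) or M-BMM replicate 2 (1.81, 0.0948). The calls of Tnfsf8 in both comparisons, those of Tnfrsf18 in both, those of Cd40, Tnfsf15 and Tnfrsf14 against M-BMM, and those of Tnfrsf1b, Tnfrsf13c and Tnfsf4 against GM-BMM ended under no alternative other than the removal of limma's moderation.

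Smaller ligand differences stood against M-BMM. Cd70, the ligand of CD27, measured 6.13 and 5.75 in GM-BMDC, 5.56 and 5.14 in GM-BMM, and 5.29 and 5.10 in M-BMM, and Tnfsf9, 4-1BB ligand, measured 6.48 and 6.97 in GM-BMDC, 6.59 and 6.64 in GM-BMM, and 6.17 and 6.00 in M-BMM. Cd70 was 1.68-fold (0.75 ± 0.19, limma adjusted p = 0.0325) and Tnfsf9 1.56-fold (0.64 ± 0.17, limma adjusted p = 0.0418) higher in GM-BMDC than in M-BMM. Tnfsf10, which encodes the death ligand TRAIL, measured 6.12 and 5.97 in GM-BMDC, 6.33 and 7.08 in GM-BMM, and 7.41 and 7.27 in M-BMM, and was 2.47-fold lower in GM-BMDC than in M-BMM (-1.30 ± 0.23, limma adjusted p = 0.00794). Its difference from GM-BMM (-0.66 ± 0.23, limma adjusted p = 0.129) passed without GM-BMM replicate 1 (-1.03, 0.00868), and GM-BMM against M-BMM (-0.64 ± 0.23, limma adjusted p = 0.174) passed without GM-BMM replicate 2 (-1.02, 0.0113). Cd70 against M-BMM lost its call without GM-BMDC replicate 1 (0.56, limma adjusted p = 0.164), M-BMM replicate 1 (0.84, 0.122) or M-BMM replicate 2 (0.65, 0.186), and with the Y-linked covariate (0.50, 0.0848). Tnfsf9 lost it without GM-BMDC replicate 2 (0.40, 0.135), M-BMM replicate 1 (0.73, 0.138), M-BMM replicate 2 (0.55, 0.213) or either GM-BMM array (0.0548), and with arrays centred on the median (0.59, 0.0694). Tnfsf10 lost it without M-BMM replicate 1 (-1.23, 0.0853) or M-BMM replicate 2 (-1.37, 0.0598).

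M-BMM had more RNA of Ltb, the membrane anchor of lymphotoxin, than both GM-CSF populations. Ltb measured 6.34 and 6.25 in GM-BMDC, 5.76 and 6.12 in GM-BMM, and 6.97 and 7.18 in M-BMM. It was 2.20-fold lower in GM-BMM than in M-BMM (-1.14 ± 0.15, limma adjusted p = 0.00544) and 1.72-fold lower in GM-BMDC than in M-BMM (-0.78 ± 0.15, limma adjusted p = 0.012). Cd79b, a B cell receptor gene, moved with it, at 8.49 and 7.32 in GM-BMDC, 7.69 and 7.95 in GM-BMM, and 10.16 and 10.21 in M-BMM, while the other B cell genes that passed were higher in GM-BMDC, and their part in the Ltb result was not tested. Of the 11 measured T and NK cell genes, 6 were low on all arrays (Cd3d, Cd3g, Ncr1, Klrb1c, Gzmb and Themis), and 1 passed, Cd8a, a gene that dendritic cell subsets also express, higher in GM-BMDC than in each macrophage population. Tnfsf18, GITR ligand, measured 5.03 and 4.70 in GM-BMDC, 4.56 and 4.52 in GM-BMM, and 5.64 and 5.14 in M-BMM. It was 1.80-fold lower in GM-BMM than in M-BMM (-0.85 ± 0.19, limma adjusted p = 0.0416), with 4 of 6 arrays low. The calls of Ltb ended in GM-BMM against M-BMM without M-BMM replicate 2 (-1.03, limma adjusted p = 0.0814), and in GM-BMDC against M-BMM without GM-BMDC replicate 2 (-0.73, 0.0522), M-BMM replicate 1 (-0.88, 0.0559) or M-BMM replicate 2 (-0.68, 0.101), or with the Y-linked covariate (-0.69, 0.0563). Tnfsf18 lost its call without GM-BMM replicate 1 (-0.87, 0.126), GM-BMM replicate 2 (-0.83, 0.12), M-BMM replicate 1 (-0.60, 0.231) or M-BMM replicate 2 (-1.10, 0.059), with quantile normalization (-0.81, 0.0611) and with the Y-linked covariate (-0.95, 0.0709).

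**Figure D3:**
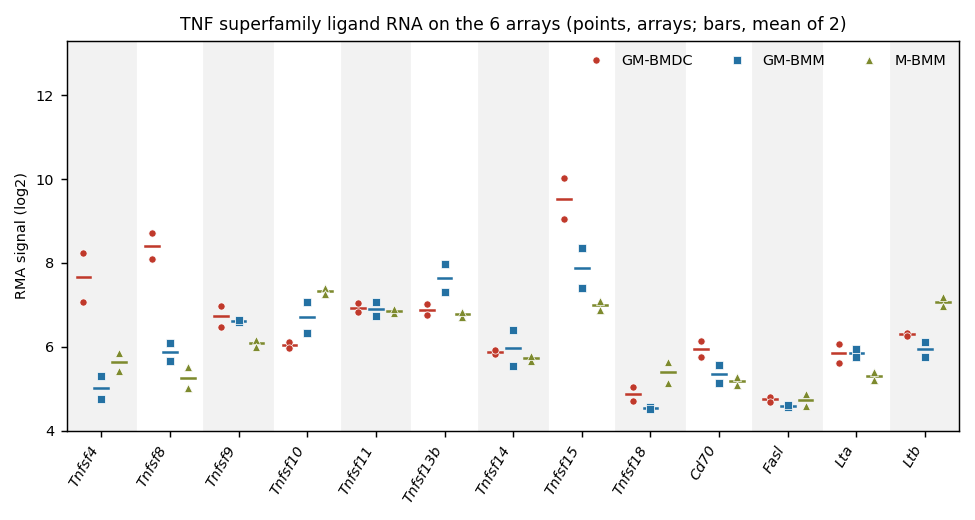
RMA signal (y axis, log2) of the 13 ligand genes (x axis) on each array, with red circles for GM-BMDC, blue squares for GM-BMM, green triangles for M-BMM and a bar at the mean of 2 arrays. GM-BMDC lie highest in Tnfsf4, Tnfsf8 and Tnfsf15, and M-BMM in Ltb, at 6.97 and 7.18.

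Ligands that did not pass had these ranges. Tnfsf13b, which encodes BAFF, measured 6.75 and 7.01 in GM-BMDC, 7.31 and 7.98 in GM-BMM, and 6.71 and 6.84 in M-BMM. GM-BMM lay above both other populations, by log2 differences of -0.76 ± 0.22 for GM-BMDC against GM-BMM (limma adjusted p = 0.0719) and 0.86 ± 0.22 for GM-BMM against M-BMM (limma adjusted p = 0.0668). Both passed without GM-BMM replicate 1 (-1.10, 0.00996, and 1.20, 0.0113) and with the Y-linked covariate (-0.75, 0.0153, and 1.15, 0.0104). Lta, the soluble lymphotoxin, measured 6.07 and 5.62 in GM-BMDC, 5.76 and 5.95 in GM-BMM, and 5.41 and 5.22 in M-BMM. Tnfsf11, RANK ligand (6.73 to 7.07), and Tnfsf14, LIGHT (5.54 to 6.40), differed by at most 0.25 in any comparison. Fasl, Fas ligand, was low on all 6 arrays (4.57 to 4.87), as was Cd40lg, the partner of Cd40 outside the rule (3.82 to 4.23).

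Receptors were next set beside their ligands, over 19 textbook pairs of a ligand and a receptor. Both partners passed in 1 pair in GM-BMDC against GM-BMM, in 0 pairs in GM-BMM against M-BMM and in 3 pairs in GM-BMDC against M-BMM. The pair of the first comparison was Tnfsf4 with Tnfrsf4, both higher in GM-BMDC, and the pairs of the last were Tnfsf4 with Tnfrsf4 and Tnfsf9 with Tnfrsf9, both higher, and Ltb with Ltbr, both lower. Opposite calls of ligand and receptor occurred in 0 pairs. Some genes, such as Tnfsf13b and Ltbr, stand in more than 1 pair, and the decoy receptors Tnfrsf22 and Tnfrsf23 were not among the pairs. Of all members 30.8%, 10.3% and 41.0% passed in the 3 comparisons, and whether partners passed together more often than these shares give was not tested. The other pairs that moved did so on 1 side. Against M-BMM, the ligands Tnfsf8, Tnfsf15 and Cd70 were higher in GM-BMDC while their receptors Tnfrsf8, Tnfrsf25 and Cd27 did not pass, and the receptors Cd40, Tnfrsf13c and Tnfrsf18 were higher while their ligands did not pass. Lower on 1 side only were the ligand Tnfsf10 beside Tnfrsf10b, and the receptors Tnfrsf14 and Ltbr beside Tnfsf14 and Tnfrsf1a beside Lta.

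Position on the chromosome, which the rule did not use, was read from RefSeq on GRCm38.p6. Of the 39 members, 20 lie beside another member with at most 1 protein-coding gene between, in 12 neighbouring pairs. Tnfsf15 and Tnfsf8 on chromosome 4 were both higher in GM-BMDC in both comparisons (1.65 and 2.53 over GM-BMM, 2.54 and 3.15 over M-BMM), and so were Tnfrsf4 and Tnfrsf18 on the same chromosome (1.11 and 1.80, then 0.93 and 2.30). The cluster on chromosome 7 gave -1.69, -0.76 and -1.65 for Tnfrsf26, Tnfrsf22 and Tnfrsf23 in GM-BMDC against GM-BMM. Other neighbours parted. Tnfsf4 on chromosome 1 was higher in GM-BMDC than in GM-BMM by 2.63, against 0.33 for Tnfsf18 beside it and 0.16 for Fasl, neither of which passed. Ltb and Lta on chromosome 17 differed by -1.14 and 0.54 in GM-BMM against M-BMM, where Ltb alone passed.

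The spread between replicates was larger for the members than for genes at large in GM-BMM, without a test. The median absolute replicate difference of the members was 0.23 for GM-BMDC, 0.34 for GM-BMM and 0.14 for M-BMM, and that of all genes was 0.15, 0.14 and 0.12. It was over 0.5 for 10 members among GM-BMDC, 14 among GM-BMM and 1 among M-BMM. The share of all genes over 0.5 is not given here, so only the medians compare members with genes at large. In GM-BMDC, replicate 2 was lower than replicate 1 in Tnfsf4 by 1.17, Tnfsf15 by 0.97, Tnfrsf9 by 0.93 and Cd40 by 0.85, and higher in Tnfrsf21 by 0.71 and Tnfrsf1a by 0.51. GM-BMDC replicate 2 was also the array with more macrophage RNA, as given above, and its part in these gaps was not tested. In GM-BMM, replicate 2, with more H2-Ab1 RNA, was higher in Tnfrsf11a by 0.99, Tnfsf15 by 0.95 and Cd40 by 0.81, and lower in Tnfrsf9, Tnfrsf26 and Tnfrsf23.

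**Figure D4:**
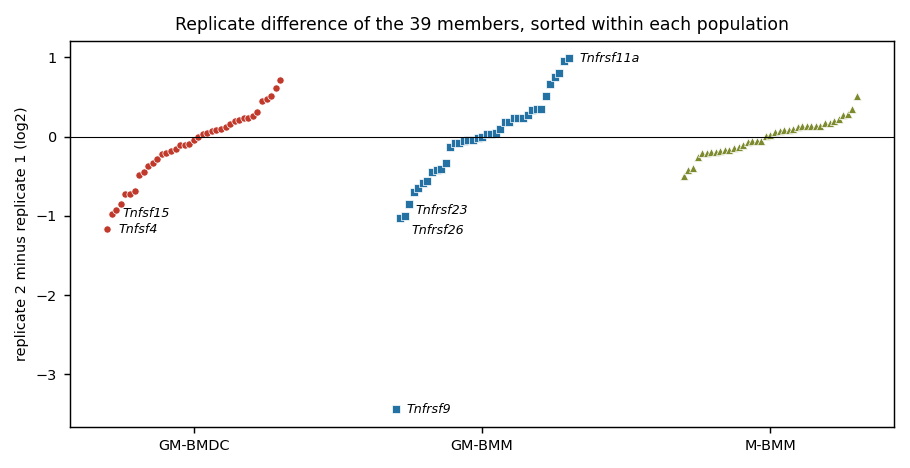
Replicate 2 minus replicate 1 (y axis, log2) of each of the 39 members in the 3 populations (x axis), sorted within a population, with genes beyond 0.95 in either direction named. Tnfrsf9 in GM-BMM stands alone at -3.44, and the M-BMM points stay within about 0.51 of 0.

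The signalling machinery behind the receptors was read over 35 measured genes of a list of 38: TRAF adaptors, death domain adaptors, NF-κB activating kinases and their brakes. Of these, 8 rose and 7 fell in GM-BMDC relative to GM-BMM, 4 rose and none passed as lower in GM-BMM relative to M-BMM, and 9 rose and 6 fell in GM-BMDC relative to M-BMM. These are 42.9%, 11.4% and 42.9% of the list, against 10.4%, 6.19% and 16.7% of all genes. The list's median log2 differences were -0.07, 0.06 and 0.10. The first count, 15, was 5 without GM-BMDC replicate 1, 7 without GM-BMM replicate 1, 6 without GM-BMM replicate 2 and 7 without either M-BMM array. Without either M-BMM array the second, 4, was 1 and the third, 15, was 5, and the third was 8 without GM-BMDC replicate 1. Map3k14, which encodes NIK, the kinase that starts the noncanonical NF-κB pathway below CD40 and the BAFF and lymphotoxin receptors, measured 10.00 and 9.13 in GM-BMDC, 7.05 and 7.11 in GM-BMM, and 7.28 and 7.24 in M-BMM. It was higher in GM-BMDC by 5.57-fold over GM-BMM (2.48 ± 0.25, limma adjusted p = 0.00126) and 4.94-fold over M-BMM (2.30 ± 0.25, limma adjusted p = 0.00101). Relb, the NF-κB subunit at the end of that pathway, measured 9.10 and 8.48 in GM-BMDC, 7.33 and 7.63 in GM-BMM, and 7.61 and 7.45 in M-BMM, and was 2.48-fold (1.31 ± 0.21, limma adjusted p = 0.00887) and 2.40-fold (1.26 ± 0.21, limma adjusted p = 0.00656) higher in GM-BMDC. Birc2, a ubiquitin ligase of the receptor complexes, rose 2.69-fold over GM-BMM (1.43 ± 0.17, limma adjusted p = 0.00248) and 2.32-fold over M-BMM (1.22 ± 0.17, limma adjusted p = 0.00292).

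Traf1, an adaptor of TNF receptor 2, CD40 and 4-1BB, was graded over the populations, at 10.26 and 9.52 in GM-BMDC, 8.67 and 8.76 in GM-BMM, and 6.45 and 6.06 in M-BMM. No array of a population overlapped another's, and the folds were 2.26 in GM-BMDC over GM-BMM (1.17 ± 0.24, limma adjusted p = 0.0242), 5.49 in GM-BMM over M-BMM (2.46 ± 0.24, limma adjusted p = 0.00146) and 12.4 in GM-BMDC over M-BMM (3.63 ± 0.24, limma adjusted p = 0.000159). Traf5, a related adaptor, was 4.03-fold higher in GM-BMDC than in M-BMM (2.01 ± 0.19, limma adjusted p = 0.000539) and 1.98-fold higher in GM-BMM than in M-BMM (0.99 ± 0.19, limma adjusted p = 0.0243). Mlkl, the executor of necroptosis, measured 7.04 and 7.20 in GM-BMDC, 8.66 and 8.89 in GM-BMM, and 7.89 and 7.80 in M-BMM. It was 3.15-fold lower in GM-BMDC than in GM-BMM (-1.66 ± 0.13, limma adjusted p = 0.000484) and 1.91-fold higher in GM-BMM than in M-BMM (0.93 ± 0.13, limma adjusted p = 0.0068). Map3k5, a stress kinase also called ASK1, was 2.20-fold higher in GM-BMM than in M-BMM (1.14 ± 0.20, limma adjusted p = 0.0172). Traf1 against GM-BMM did not pass without GM-BMDC replicate 1 (0.80, limma adjusted p = 0.0726), GM-BMM replicate 1 (1.13, 0.0824), GM-BMM replicate 2 (1.22, 0.0758) or either M-BMM array (0.056), nor without both GM-CSF arrays numbered 1 (0.75, 0.0762). In GM-BMM against M-BMM, leaving out M-BMM replicate 1 or replicate 2 ended the calls of Traf5 (1.09, 0.127, and 0.89, 0.203), Map3k5 (1.28, 0.0909, and 1.00, 0.172) and Mlkl (0.97, 0.0686, and 0.89, 0.0894), and leaving out GM-BMM replicate 2 those of Traf5 (0.76, 0.0716) and Map3k5 (1.05, 0.0632). In GM-BMDC against M-BMM, the call of Relb ended without M-BMM replicate 1 (1.34, 0.0536) or replicate 2 (1.18, 0.0704).

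**Figure D5:**
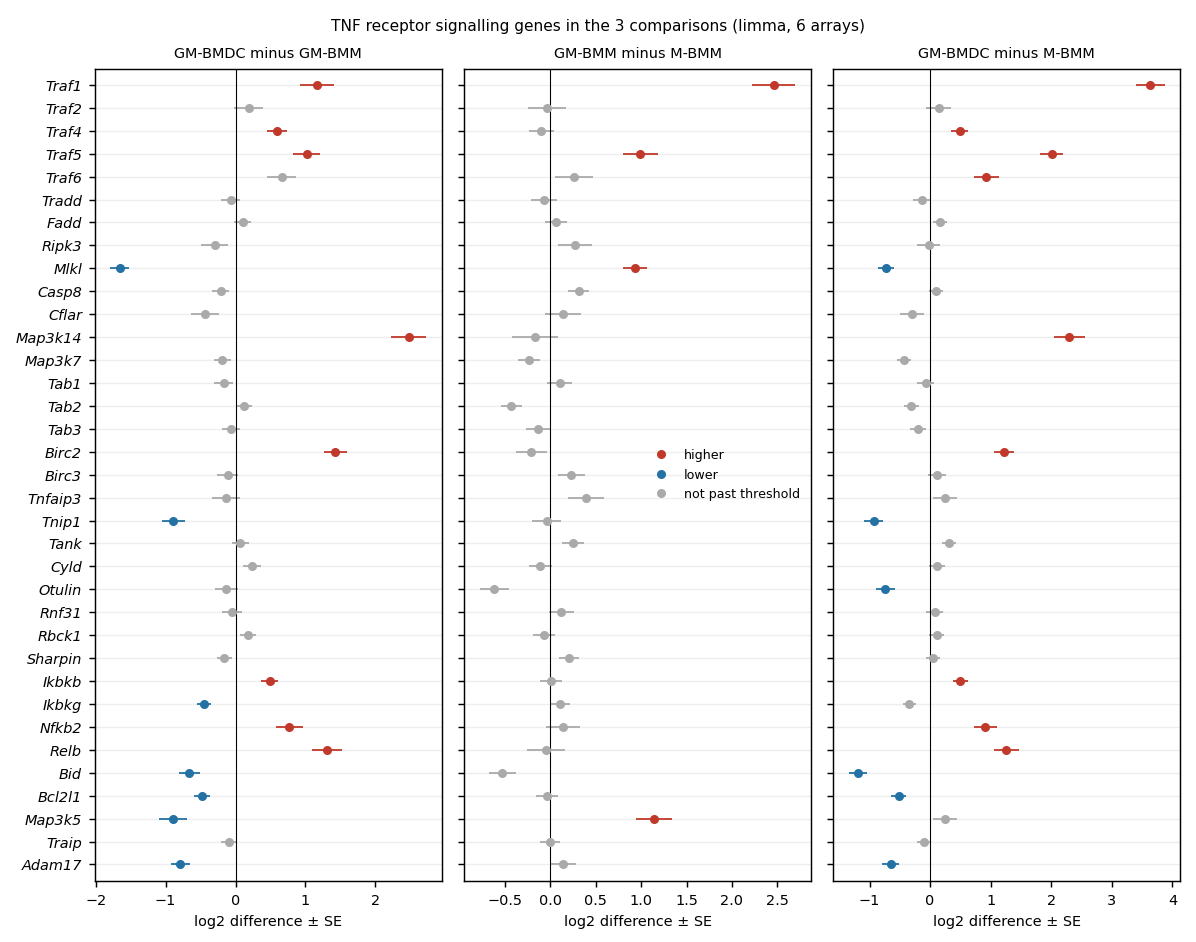
Log2 difference (x axis, ± SE from limma) of the 35 signalling genes (rows) in the 3 comparisons (panels), with genes higher in red, lower in blue and those that did not pass in grey. Map3k14 leads the first comparison at 2.48, and Traf1 leads the other 2 at 2.46 and 3.63.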

How the data were processed

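Each of 6 sorted samples gave 300 ng of total RNA and was read on an Affymetrix array of its own. The authors deposited log2 values made with Affymetrix Expression Console 1.1 and RMA, per the submitters' processing notes. RMA corrects background, makes the arrays' distributions alike and combines probes into probe sets, which compresses differences at low signal. The table held 35556 probe sets with 0 missing values and array medians between 6.18 and 6.28. The array annotation named 1 gene for 21789 probe sets, several for 1621 and none for 12146, and of a gene's probe sets the one with the highest mean over 6 arrays was kept. Precision is set by having 2 arrays in a group, since arrays hold no depth, and the median SE of a log2 difference was 0.132.

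The 6 arrays were fitted together (limma 3.58.1, R 4.3.3, 3 residual and 4.34 prior degrees of freedom, two-sided, Benjamini-Hochberg over 19938 genes within a comparison, called under 0.05). Low values were kept, and no pseudocount was added. A permutation test of 2 against 2 arrays cannot go below p = 0.333 and was not run. Of 200 genes changed 2-fold in simulated data, the fit over 19938 genes found 76.5% for GM-BMDC against GM-BMM, 77.5% for GM-BMM against M-BMM and 67.0% for GM-BMDC against M-BMM. The simulated noise was normal, with a gene's variance equal in all groups, and only these 200 genes changed. The data differ in this, so the shares need not hold for them. The members and lists were chosen with earlier results of these data known, and described genes were taken by a rule: every member past the threshold in any comparison, and up to 5 signalling genes per comparison with the largest difference among those past it. The B cell genes were named after their values were seen. For each comparison 19 alternatives were tried, of which 18 were planned. Some genes of the lists were not analysed here. Tables were made with pandas 2.3.3 and NumPy 2.4.6 in Python 3.11.15, and figures with matplotlib 3.10.9.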

Additional observations from a re-analysis of the deposited data

How the results depend on the processing

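The comparisons are given in the order GM-BMDC against GM-BMM, GM-BMM against M-BMM and GM-BMDC against M-BMM. With all arrays 12, 4 and 16 members, 15, 4 and 15 signalling genes and 2079, 1235 and 3323 of all genes passed. Leaving out 1 array at a time gave 6 to 13, 0 to 10 and 5 to 16 members, 5 to 12, 1 to 4 and 5 to 14 signalling genes, and 1102 to 2055, 319 to 1347 and 1288 to 3412 of all genes. Without limma's moderation 0 members, 0 signalling genes and 0, 8 and 17 of all genes passed, with 3686, 3075 and 4628 of all genes at an unadjusted p under 0.05. Asking also for a 2-fold difference left 11, 2 and 9 members, 6, 2 and 6 signalling genes and 935, 603 and 1385 of all genes. Testing all probe sets left 5 members and 4 signalling genes in the first comparison, 2 signalling genes in the second and 8 in the third. Fitting only the groups compared left 7 signalling genes and 1207 of all genes in the first. The Y-linked covariate left 10 members, 8 signalling genes and 2114 of all genes in the third. The cause of these moves was not tested, except that a required fold can only lower a count. No label says that samples with the same replicate number share an animal or culture. The replicate 2 minus replicate 1 differences over all genes correlated at 0.024, 0.026 and -0.132 between the populations compared, so the numbers were not taken as pairs, although the Y-linked means followed the number in both GM-CSF populations. The replicate block gave 14, 5 and 16 members, and with it Fas passed in GM-BMDC against M-BMM (0.65, limma adjusted p = 0.0286). With the M-BMM numbers crossed, chosen after seeing the data, the block gave 17 members in GM-BMDC against M-BMM. Over 79 selected differences of single genes, 1499 values under an alternative held 205 lost calls, 39 gained calls and 0 turns of direction. Differences outside this selection could change sign, such as Tnfrsf21 in GM-BMDC against M-BMM, between -0.66 and 0.04 with 1 array left out, and Tnfsf14 in GM-BMDC against GM-BMM, between -0.52 and 0.33. In GM-BMM signal near background limits Tnfsf4, Tnfsf18 and Fasl, whose means there were low.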
